A study of Rattus norvegicus with 24 samples.

Results

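The 9 genes described here encode the proteoglycans, tenascins, link protein and receptor that build the perineuronal net and the looser matrix of the brain. They were Tnr, Tnc, Acan, Bcan, Ncan, Vcan, Hapln1, Ptprz1 and Cspg5, taken by name from the 23950 gene rows of each library, and each name matched 1 row. RNA was sequenced from the nucleus accumbens (NAc) of Sprague Dawley rat pups at postnatal day 14, in 24 libraries that fell into 6 groups of 4 pups from separate litters. In the in utero oxycodone (IUO) lineage, F0 dams were gavaged with 10 mg/kg/day for 5 days, then with steps of 0.5 mg/kg/day over 10 days up to 15 mg/kg/day, and dosing went on through mating, pregnancy and nursing. In the postnatal oxycodone (PNO) lineage, F0 dams received 15 mg/kg/day only between birth and weaning, and saline (SAL) dams were the controls. F1 pups were the offspring of these dams, and F2 pups came from F1 females that were themselves never dosed, mated with males that had no part in the dosing. All animals were of the same strain and carried no engineered allele, the tissue was a bulk section cut with a brain matrix, and the sex of each pup was not given.

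The perineuronal net is a lattice of matrix that condenses around the cell body and proximal dendrites of certain neurons as circuits mature. Its scaffold is hyaluronan, to which the lecticans (aggrecan, brevican, neurocan and versican) bind through their head domains, steadied by link proteins and cross-linked at the far end by tenascin-R. Juvenile brain matrix is known to hold more neurocan, versican and tenascin-C than adult matrix, and much of it is made by astrocytes and oligodendrocyte precursors.

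The values are FPKM, which divide the fragments of a gene by transcript length and library size, so levels of different genes are compared per length. Summed FPKM of a library ran from 535866 to 766781, and the number of reads behind each library is unknown, so counting error is not given. The 13 mitochondrial genes made up 17.0% (F1 IUO replicate 4) to 41.8% (F2 PNO replicate 1) of it. The lowest shares, in F1 IUO replicate 4 and F1 PNO replicate 3 (24.1%), were in the libraries with the highest Bcan and Cspg5 of their groups. The part of this share in member values was not tested. Markers of striatal projection neurons, the main neurons of the NAc, were above 0 for 9 of 9 genes in all 24 libraries, with a summed FPKM from 401 to 1305 and Ppp1r1b as the most abundant. The libraries of F2 PNO replicate 1 and F2 IUO replicate 4 stood apart from the rest. They held 12458 and 12583 genes at 1 FPKM or more, whereas the other 22 held 13280 to 14122. Values without these libraries are given beside many of the results that involve them, a choice made after seeing the data, the low member values in them included.

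Levels of the 9 genes spanned a wide range on the FPKM scale. Bcan (brevican) was highest with a median of 171 FPKM over the 24 libraries, followed by Cspg5 with 95.4, Ncan with 64.0 and Ptprz1 with 57.7. Hapln1 (8.61), Tnr (8.31) and Tnc (6.84) formed a middle tier, Vcan had 3.90 and Acan 0.82. The order Bcan over Cspg5 over Ncan held in 24 of 24 libraries, as did Ptprz1 over Hapln1 and Vcan over Acan. Tnc exceeded Vcan in 23. Neighbours in the middle did not separate: Ncan was above Ptprz1 in 18 libraries, Hapln1 above Tnr in 13 and Tnr above Tnc in 15. By mean FPKM, Bcan had rank 434 from the top of the 23950 genes and Acan rank 14106. Tnr varied most between libraries, with an SD of 0.92 on the log2 scale over all 24 and 0.56 without the 2 libraries with few detected genes. Bcan varied least over all 24, with 0.28, and Ptprz1 least without that pair, with 0.20 in place of 0.38.

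**Figure D1:**
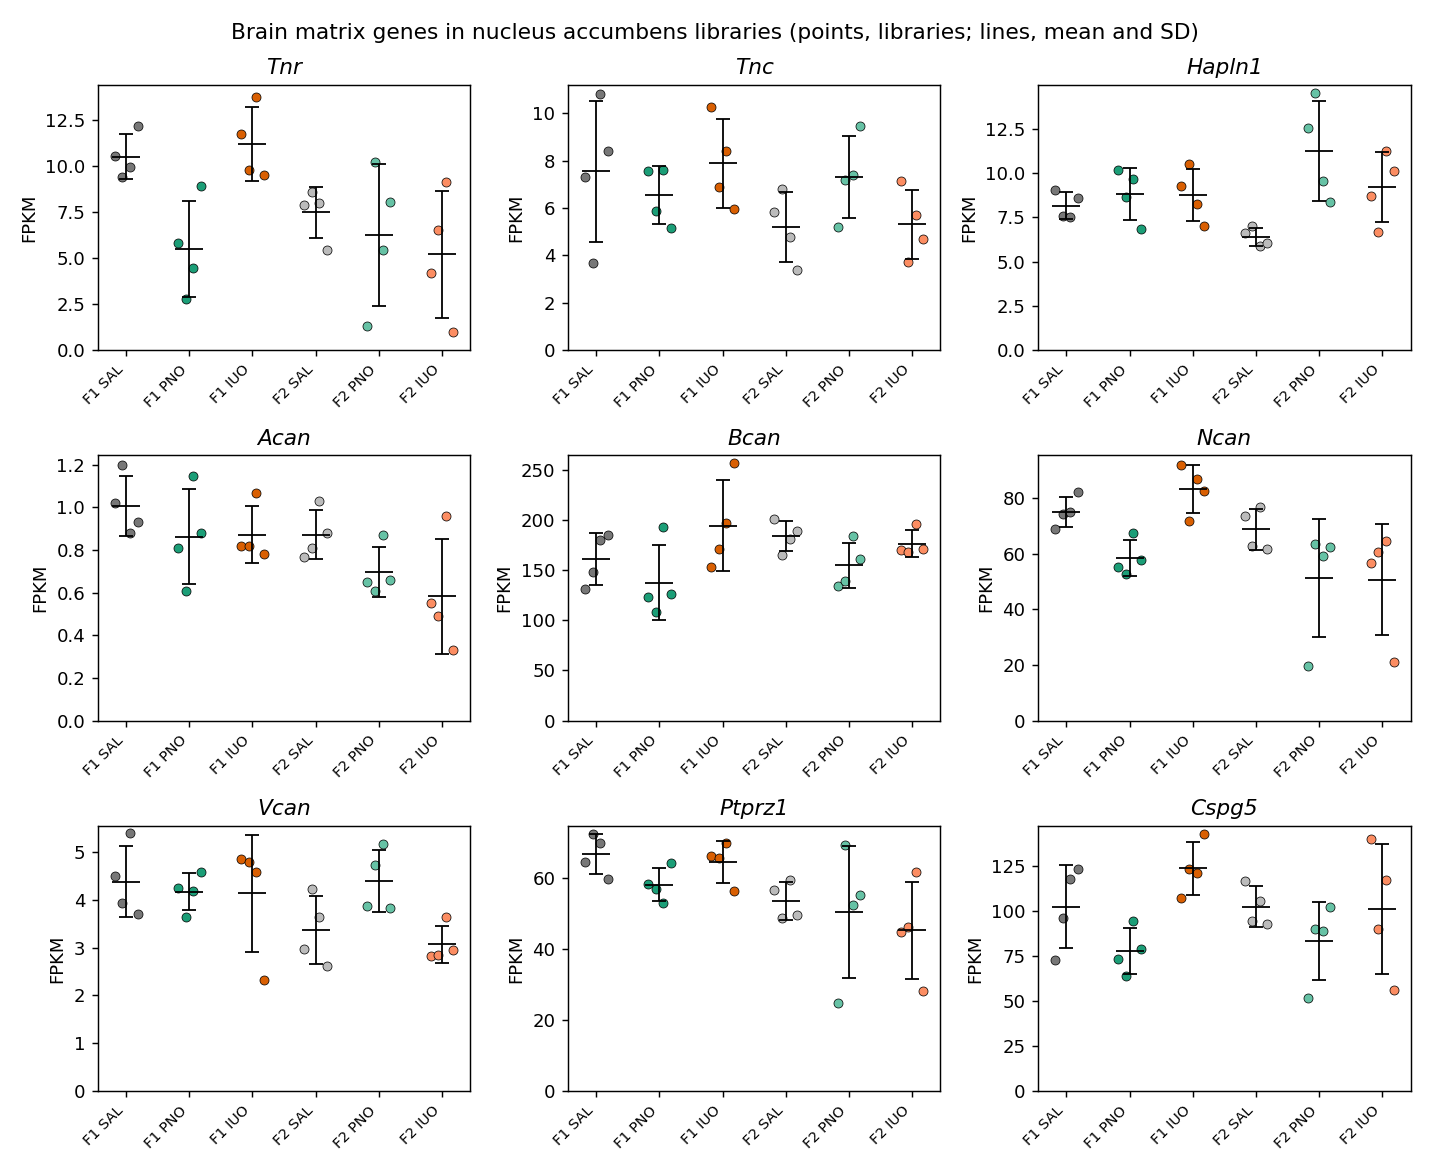
Each panel shows a gene's FPKM on a linear axis from 0, with 1 point per library in each of the 6 groups, and a line and bars for the group mean and SD (n = 4). The lowest points of Tnr, Ncan, Ptprz1 and Cspg5 belong to F2 PNO replicate 1 and F2 IUO replicate 4, with Ncan at 19.8 and 21.2 FPKM.

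Tnr encodes tenascin-R, the trimer that clamps lecticans together at the outer side of the net. In F1 SAL its FPKM was 10.5, 9.37, 9.95 and 12.2 in replicates 1 to 4, and in F1 IUO it was 11.7, 9.75, 13.8 and 9.49. In F1 PNO the values were 5.82, 2.79, 4.46 and 8.93. All F1 PNO libraries lay under all F1 SAL and F1 IUO libraries, with the highest of them close to the lowest of the others. In F2 SAL the FPKM was 7.88, 8.58, 8.0 and 5.42. In F2 PNO it was 1.29, 10.2, 5.42 and 8.04, and in F2 IUO it was 4.20, 6.52, 9.10 and 0.99. The 3 F2 groups overlapped, and the lowest values of F2 PNO and F2 IUO were in the low libraries named above.

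Tnc encodes tenascin-C, a relative of tenascin-R that is abundant in immature brain. Its FPKM ran from 3.36 in F2 SAL replicate 4 to 10.8 in F1 SAL replicate 3. Group means were 7.56 ± 2.98 in F1 SAL, 6.54 ± 1.22 in F1 PNO and 7.88 ± 1.88 in F1 IUO (SD, n = 4). In F2 they were 5.19 ± 1.47 in SAL, 7.32 ± 1.74 in PNO and 5.31 ± 1.46 in IUO (SD, n = 4). Every pair of groups shared part of its range.

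Among the lecticans, Ncan (neurocan) had 68.7, 74.1, 74.9 and 82.1 FPKM in F1 SAL, and 91.7, 71.6, 86.7 and 82.5 in F1 IUO. In F1 PNO it had 55.2, 52.7, 67.6 and 57.8. The F1 PNO libraries were all under the F1 SAL and F1 IUO libraries. In F2 SAL the FPKM of Ncan was 73.5, 62.9, 76.7 and 61.8. In F2 PNO it was 19.8, 63.6, 59.3 and 62.5, and in F2 IUO it was 56.6, 60.5, 64.4 and 21.2. Apart from the pair of low libraries, the F2 values lay between 56.6 and 76.7.

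Bcan, the most abundant lectican, ran from 108 FPKM in F1 PNO replicate 2 to 256 in F1 IUO replicate 4. Means were 138 ± 37.7 in F1 PNO, 161 ± 25.8 in F1 SAL and 194 ± 45.2 in F1 IUO (SD, n = 4), and these groups overlapped. Of the 2 libraries low in Ncan, F2 PNO replicate 1 had 134 FPKM of Bcan, the lowest of its group and close to the next at 139, and F2 IUO replicate 4 had 171, within the range of its group. Vcan (versican), a large lectican of immature matrix, had 3.86, 4.72, 5.16 and 3.83 FPKM in F2 PNO and 2.82, 2.85, 3.65 and 2.94 in F2 IUO. The F2 IUO values were all lower, and F2 SAL, from 2.61 to 4.23, overlapped with both. Acan (aggrecan), the classic marker of mature nets, was at or under 1.20 FPKM in all 24 libraries, and its lowest value was 0.33 in F2 IUO replicate 4.

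Hapln1 encodes the link protein that fastens lecticans to hyaluronan. Its FPKM was 9.03, 7.57, 7.51 and 8.59 in F1 SAL and 6.63, 7.0, 5.89 and 6.07 in F2 SAL. In F2 PNO it was 12.6, 14.6, 9.57 and 8.38, and in F2 IUO it was 8.70, 6.69, 11.3 and 10.1. The F2 SAL libraries were all under those of F1 SAL and F2 PNO, and of the F2 IUO libraries replicate 2 lay in their range. The libraries with few detected genes were not low in Hapln1. F1 PNO and F1 IUO had means of 8.84 ± 1.48 and 8.77 ± 1.49 (SD, n = 4) and overlapped with F1 SAL.

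Ptprz1 encodes a receptor phosphatase whose secreted extracellular form, phosphacan, binds tenascins. Its FPKM was 64.7, 72.3, 70.02 and 59.8 in F1 SAL and 56.6, 48.7, 59.6 and 49.6 in F2 SAL. The F2 SAL libraries were all lower, by a narrow margin at the nearest pair. The lowest values of Ptprz1 were 24.8 in F2 PNO replicate 1 and 28.3 in F2 IUO replicate 4. Cspg5 encodes neuroglycan C, a membrane proteoglycan of neurons and glia. It had 107, 124, 122 and 143 FPKM in F1 IUO and 73.2, 64.2, 94.5 and 79.1 in F1 PNO. These groups did not overlap, and F1 SAL, from 73.0 to 123, overlapped with each of them.

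Between F1 groups, Tnr and Ncan were lower in PNO than in SAL, and Tnr, Ncan and Cspg5 were lower in PNO than in IUO, but no member passed the test over all genes. Mean Tnr was 5.50 ± 2.60 FPKM in PNO and 10.5 ± 1.21 in SAL (SD, n = 4), a log2 fold change of -1.03 (standard error 0.30, adjusted p = 0.238, limma). For Ncan, with means of 58.3 and 74.9 FPKM, the difference on the log2 scale was -0.36 (standard error 0.10, with an adjusted p = 0.233). The exact permutation p for each was 0.0286, the smallest that 4 against 4 libraries can give. Of the 9 members, 0 had an adjusted p under 0.05 in limma, against 0% of 17494 genes, and 2 had an unadjusted p under 0.05, against 13.9% of genes. The same 2 did not overlap between groups, against 8.27% of genes. In a joint fit of all 24 libraries, the count at an unadjusted p under 0.05 went from 2 to 0. In bulk tissue, fewer cells of a type and less RNA per cell cannot be told apart.

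For F1 IUO against F1 PNO, 0 of 9 members had an adjusted p under 0.05 in limma, against 0.133% of 17306 genes. Unadjusted, 4 were under 0.05 (Tnr, Bcan, Ncan and Cspg5, all higher in IUO), against 16.5% of genes, and 3 did not overlap, against 10.5%. Cspg5 came nearest to the threshold, with means of 124 and 77.7 FPKM, a log2 fold change of 0.68 (standard error 0.14) and an adjusted p = 0.0884. Log2 fold changes of Tnr and Ncan were 1.11 (adjusted p = 0.150) and 0.51 (adjusted p = 0.110), and that of Bcan was 0.51 (adjusted p = 0.266). Bcan missed an unadjusted p under 0.05 in 5 of 15 alternatives, over which its log2 fold change ran from 0.36 to 0.76. Tnr missed it in 2, Ncan in 1 and Cspg5 in 0. The joint fit of all libraries had 2 members under 0.05 in place of 4.

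Some markers of cell types and regions were also apart in this contrast, by their sum, their mean log2 level or both. The 9 striatal projection neuron markers summed to 1100, 1149, 826 and 819 FPKM in F1 IUO and to 754.5, 527, 643 and 728 in F1 PNO, without overlap. Their mean log2 level did overlap, from 5.22 to 5.87 in F1 IUO and from 4.77 to 5.75 in F1 PNO. The 7 hypothalamus markers, led by Avp, summed to 95.4, 131, 43.8 and 158 FPKM in F1 IUO and to 3.99, 5.66, 12.7 and 10.1 in F1 PNO, without overlap. At most 1 of the 7 was listed at 0 in an F1 IUO library and at most 2 in an F1 PNO library. The 5 oligodendrocyte precursor markers, led by Olig1, summed to 196, 209, 228 and 233 FPKM in F1 IUO and to 151, 143, 199 and 158 in F1 PNO, which overlapped, with 0 listed at 0. Their mean log2 level ran from 5.14 to 5.40 in F1 IUO and from 4.71 to 5.14 in F1 PNO, apart by a margin so narrow that the nearest values differed by less than the rounding shown. The part of these cells in the values of Tnr, Bcan, Ncan and Cspg5 was not tested.

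For F1 IUO against F1 SAL, 0 of 9 members were called at an adjusted p under 0.05 (0% of 17380 genes), 0 at an unadjusted p under 0.05 (3.91%, limma) and 0 were free of overlap (2.54%).

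Thalamus markers tended to be high in the F1 PNO libraries, with overlap between groups. The 7 genes of that list, of which Tcf7l2 was the most abundant, summed to 127, 329, 145 and 225 FPKM in F1 PNO. In F1 SAL they summed to 163, 97.6, 34.1 and 20.3, and in F1 IUO to 28.6, 34.7, 92.6 and 153. All 7 were above 0 in every F1 PNO library, and Lhx9 was listed at 0 in F1 SAL replicate 3 and F1 IUO replicate 1. With the thalamus score as a covariate, the members at an unadjusted p under 0.05 between F1 PNO and F1 SAL went from 2 to 0, and the log2 fold changes of Tnr and Ncan were -0.83 and -0.23 in place of -1.03 and -0.36. Whether tissue at the edge of the dissection took part in the lower values was not tested.

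In F2, the counts of members lay close to the share of all genes, and the member at an unadjusted p under 0.05 in PNO and in IUO against SAL was Hapln1. Mean Hapln1 was 11.3 ± 2.81 FPKM in PNO and 6.40 ± 0.51 in SAL (SD, n = 4), a log2 fold change of 0.78 (standard error 0.19, adjusted p = 0.347, exact permutation p = 0.0286). Without F2 PNO replicate 1, it was 0.71, and 2 members in place of 1 had an unadjusted p under 0.05. The count of all genes under 0.05 went from 1876 to between 1231 and 2742 over the alternatives. Of the 9 members, 0 had an adjusted p under 0.05 in limma, against 0.00576% of 17367 genes, and 1 had an unadjusted p under 0.05, against 10.8%. Hapln1 was also the 1 member whose groups did not overlap, against 7.01% of genes. Between F2 IUO and F2 SAL, the log2 fold change of Hapln1 was 0.49 (standard error 0.18, adjusted p = 0.556), and 0.44 without F2 IUO replicate 4, and the groups overlapped. There, 0 members were called at an adjusted p under 0.05 (0% of 17097 genes), 1 at an unadjusted p under 0.05 (8.49%, limma) and 0 were free of overlap (5.11%). The count at an unadjusted p under 0.05 went from 1 to 0 in that contrast with upper-quartile rescaling or without F2 SAL replicate 3, and to 3 without F2 IUO replicate 3. Hapln1 itself missed 0.05 there in 3 of 16 alternatives. Both contrasts use the same F2 SAL libraries.

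Microglia markers were lower in F2 PNO than in F2 SAL by their mean log2 level, and blood markers overlapped between the F2 groups. The blood markers were 3 gene names on 4 rows, led by Hba-a2. They summed to 36.1, 20.1, 13.2 and 16.8 FPKM in F2 SAL, to 30.6, 195, 41.1 and 47.3 in F2 PNO and to 92.5, 27.3, 87.1 and 120 in F2 IUO. The highest F2 SAL value lay above the lowest of F2 PNO and of F2 IUO, and at most 2 of the 4 rows were listed at 0 in a library. The 5 microglia markers, led by Csf1r, had a mean log2 level from 3.84 to 4.27 in F2 SAL and from 3.31 to 3.82 in F2 PNO, without overlap. They summed to 93.1, 91.3, 78.9 and 101 FPKM in F2 SAL and to 61.1, 78.1, 67.8 and 79.2 in F2 PNO, which overlapped, with 0 listed at 0. The part of these cells in the values of Hapln1 was not tested.

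Between F2 IUO and F2 PNO, Vcan was lower in IUO, with means of 3.07 ± 0.39 and 4.39 ± 0.66 FPKM (SD, n = 4) and a log2 fold change of -0.50 (standard error 0.21, adjusted p = 0.682). It was the 1 member at an unadjusted p under 0.05, against 7.07% of 17090 genes, and the 1 member without overlap, against 4.74%. Without both libraries with few detected genes its log2 fold change was -0.54, also under 0.05. It missed 0.05 in 6 of 16 alternatives, among them those without F2 IUO replicate 1, 2 or 4 or F2 PNO replicate 2 or 3. No member had an adjusted p under 0.05 in limma (0 of 9, against 0% of genes).

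Across generations, SAL pups had lower values of Tnr, Ptprz1 and Hapln1 in F2. Their log2 fold changes for F2 SAL against F1 SAL were -0.50, -0.32 and -0.35, with an adjusted p = 0.569 for each. These were the 3 of 9 members at an unadjusted p under 0.05 (8.48% of 17497 genes, limma) and the 3 without overlap (4.98%), while 0 members had an adjusted p under 0.05 (0.0343% of genes). In the joint fit of all libraries, none of the 3 had an unadjusted p under 0.05, and the count went from 3 to 0. Age and strain were the same in both generations. The generations were separate cohorts, so generation and cohort cannot be told apart.

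In the IUO lineage, Tnr, Ncan, Ptprz1 and Tnc were lower in F2 than in F1. Of the 9 members, 4 had an unadjusted p under 0.05, against 15% of 16916 genes, 2 did not overlap, against 10.7%, and 0 had an adjusted p under 0.05 in limma, against 0%. The log2 fold change of Tnr was -1.44 (standard error 0.55, adjusted p = 0.275), and without F2 IUO replicate 4 it was -0.80. That of Ncan was -0.83 (standard error 0.31, adjusted p = 0.269) and -0.45 without that library, and that of Ptprz1 was -0.56 (adjusted p = 0.266) and -0.35. The groups of Tnr and Ncan were those without overlap, and the groups of Ptprz1 and of Tnc overlapped. Tnc had the weakest support of these 4, with -0.57 (standard error 0.25, adjusted p = 0.319) and -0.52 without that library. Its unadjusted p was under 0.05 in 6 of 16 alternatives. The count of members went from 4 to 1 without F1 IUO replicate 1 or without F1 IUO replicate 3. In the PNO lineage, 0 members were called at an adjusted p under 0.05 (0.0288% of 17370 genes), 0 at an unadjusted p under 0.05 (4.76%, limma) and 0 were free of overlap (3.34%).

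Whether a contrast differed between generations was tested as an interaction over 16 libraries. For PNO against SAL, F2 minus F1, the estimate for Hapln1 was 0.68 (standard error 0.24, adjusted p = 0.9998), the 1 member at an unadjusted p under 0.05 (4.06% of 18608 genes), and 0 had an adjusted p under 0.05 in limma (0%). Without F2 PNO replicate 1 the estimate was 0.61 and the count was 2, while the count of all genes went from 756 to between 534 and 1299 over the alternatives. For IUO against PNO, Tnc had an estimate of -0.72 (standard error 0.33, adjusted p = 0.864), the 1 member at an unadjusted p under 0.05 (5.76% of 18405 genes), and 0 passed after adjustment (0%). It missed 0.05 in 12 of 24 alternatives, among them the joint fit, the thalamus score and the omission of any of 9 single libraries. Without the pair with few detected genes the estimate was -0.82 and the count was 3. The count of all genes under 0.05 also moved there, from 1060 to between 811 and 2238 over the alternatives. For IUO against SAL, 0 of 9 members had an adjusted p under 0.05 (0% of 18437 genes) and 0 an unadjusted p under 0.05 (5.15%, limma), and the latter was 1 without F2 IUO replicate 4. Over the 12 comparisons, 0 of 108 member tests had an adjusted p under 0.05 and 18 an unadjusted p under 0.05. The share of all genes under 0.05 unadjusted ran from 3.91% to 16.5% in these comparisons. They reuse the same 6 groups, so the 18 are not independent. The sign of those 18 differences was the same under upper-quartile rescaling and the other alternatives run.

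Scaling mattered for the background of these values. Dividing each library by its upper quartile moved the median log2 fold change of all genes from 0.01 to -0.11 in F1 IUO against SAL, from 0.03 to -0.08 in F1 IUO against PNO, and from -0.01 to -0.17 in F2 IUO against PNO. In the same comparisons, the percent of genes at an unadjusted p under 0.05 that were higher went from 49.5% to 18.9%, from 61.1% to 32.3% and from 64.9% to 17.6%, and it moved by over 10 points in 10 of the 12 comparisons. Beside those medians, the median of the 9 members was 0.09 and, rescaled, -0.03 in F1 IUO against SAL, so that its sign depended on the scaling. It was 0.25 and 0.13 in F1 IUO against PNO, and -0.28 and -0.44 in F2 IUO against PNO.

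The balance of the lecticans was measured within each library, as each gene's percent of the summed FPKM of the 4. Bcan made up 70.9 ± 5.95% and Ncan 27.1 ± 5.79% (SD, n = 24), and Vcan 1.71 ± 0.48% and Acan 0.348 ± 0.0887%. The Bcan share was highest in F2 IUO replicate 4 (87.5%) and F2 PNO replicate 1 (84.7%), where the Ncan share was 10.9% and 12.5%. In the other 22 libraries the Bcan share ran from 61.1% to 75.0%. Of 45 exact permutation tests of these shares and of the log2 ratio of Tnc to Tnr, 0 passed after adjustment (smallest adjusted p = 0.402, two-sided), and 2 were without overlap. A call would have needed 26 of the 45 tests at 0.0286, the smallest p that exact permutation of 4 against 4 can give, so this family could hardly pass. Mean Bcan share was 71.6% in F2 SAL and 66.5% in F1 SAL, and mean Vcan share was 1.33% in F2 IUO and 2.11% in F2 PNO.

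**Figure D2:**
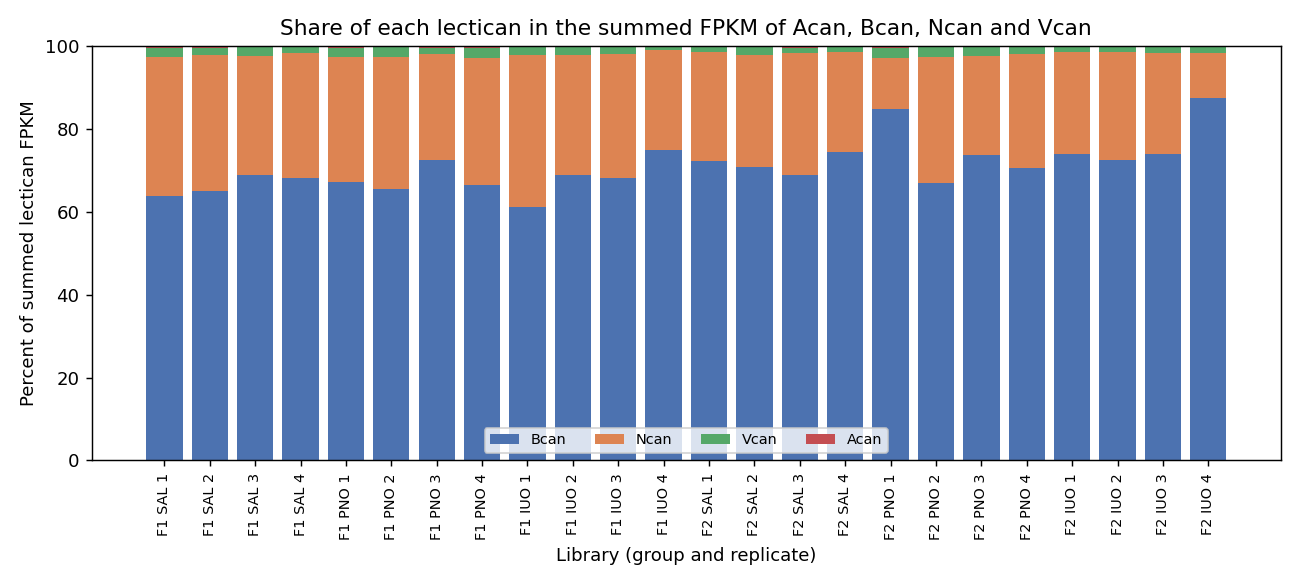
Stacked bars give the percent of the summed FPKM of Bcan, Ncan, Vcan and Acan in each of the 24 libraries, in order of group and replicate, and the vertical axis runs from 0 to 100 percent. Bcan takes 61.1% to 87.5% of the bar, and Acan, at most 0.528%, is hardly visible.

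Genes that make, cut or bind this matrix were taken as 5 lists with 80 measured genes, of which 78 were tested in each comparison. None had an adjusted p under 0.05 in any of the 12 comparisons (0 of 78 in each, limma). Unadjusted, 16 were under 0.05 in F1 PNO against SAL (20.5%, against 13.9% of all genes), 4 higher and 12 lower. That count was 9 without F1 PNO replicate 2, 9 with all 24 libraries in a joint fit and 7 with the thalamus score as a covariate. In F1 IUO against PNO, which shares the F1 PNO libraries, 17 were (21.8%, against 16.5%), 16 of them higher in IUO. That direction did not hold with upper-quartile rescaling, where 10 were under 0.05 and 4 of them higher, and the joint fit gave 5. The count was 0 in F1 IUO against SAL (against 3.91% of all genes), and 5 without F1 IUO replicate 1.

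In F2, 9 of these 78 genes had an unadjusted p under 0.05 for IUO against SAL (11.5%, against 8.49% of all genes), 8 of them lower, and 14 after rescaling, all lower. That count moved with single libraries, to 2 without F2 SAL replicate 1, 3 without F2 SAL replicate 3, and 4 without F2 IUO replicate 1 or 4, and it was 5 with no filter on low values and 17 with the thalamus score. For PNO against SAL it was 6 (7.69%, against 10.8%, 1 higher), with 3 after rescaling, 10 in the joint fit, 13 without F2 PNO replicate 4, 11 without F2 SAL replicate 2 and 3 without F2 SAL replicate 3. For IUO against PNO it was 4 (5.13%, against 7.07%, 3 higher), with 2 of 6 higher after rescaling, 7 in the joint fit, 1 without F2 IUO replicate 1 and 2 without F2 PNO replicate 2. Without the libraries with few detected genes, 3 of 7 were higher in PNO against SAL and 2 of 3 in IUO against PNO. For F2 IUO against F1 IUO it was 17 (21.8%, against 15%), all lower in F2. There 17 of 18 were lower after rescaling, 13 of 13 without F2 IUO replicate 4, and the count was 10 without F1 IUO replicate 3. The median log2 fold change of the 78 genes was -0.10 in F1 PNO against SAL, where that of all genes was -0.05, and -0.21 in F2 IUO against F1 IUO, where that of all genes was -0.09. Without F2 IUO replicate 4, the median of the 78 genes in the latter was -0.13.

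Among 15 receptors and ligands of the matrix, 7 had an unadjusted p under 0.05 in F1 PNO against SAL (against 13.9% of all genes) and 7 in F1 IUO against PNO (against 16.5%), contrasts that share the F1 PNO libraries. Over the alternatives these counts ran from 3 (with the thalamus score) to 9 (without F1 SAL replicate 1) and from 1 (in the joint fit) to 8 (without F1 IUO replicate 4), and the first was 4 without F1 PNO replicate 2 or F1 SAL replicate 2. Ptn, the secreted pleiotrophin that binds phosphacan, had 477, 445, 470 and 387 FPKM in F1 PNO and 336, 298, 254 and 272 in F1 SAL. Its groups did not overlap, with a difference of 0.62 on the log2 scale (adjusted p = 0.231). Nfasc, the axonal adhesion protein neurofascin, had means of 40.8 ± 5.05 FPKM in F1 PNO and 56.1 ± 5.72 in F1 SAL (SD, n = 4), a difference of -0.46 on the log2 scale (adjusted p = 0.231). Cspg4, the NG2 proteoglycan of oligodendrocyte precursors, had means of 8.92 in F1 IUO and 5.47 in F1 PNO (log2 fold change 0.70, adjusted p = 0.108), and of 5.69 in F2 IUO and 8.56 in F2 SAL (log2 fold change -0.59, adjusted p = 0.495, and -0.49 without F2 IUO replicate 4). Nrcam, a neuronal adhesion protein, had a log2 fold change of -0.61 in F2 IUO against F1 IUO (adjusted p = 0.229), and -0.57 without F2 IUO replicate 4.

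Among enzymes of chondroitin sulfate synthesis and breakdown, 22 of 23 were tested. Xylt1, the xylosyltransferase that starts the sugar chain, had means of 6.78 ± 0.63 FPKM in F1 IUO and 3.49 ± 1.12 in F1 PNO (SD, n = 4), a difference of 0.99 on the log2 scale (adjusted p = 0.112). In F2 IUO its mean was 3.12, a log2 fold change of -1.20 from F1 IUO (adjusted p = 0.227), and -1.04 without F2 IUO replicate 4. Chpf, a chain polymerizing factor, had 53.9, 52.6, 53.2 and 56.7 FPKM in F2 SAL, and 33.3, 35.3, 43.4 and 48.9 in F2 PNO. Those groups did not overlap (log2 fold change -0.44, adjusted p = 0.374, and -0.36 without F2 PNO replicate 1), nor did F2 PNO and F2 IUO, whose mean was 58.6. B4galt7, a galactosyltransferase that builds the linker of the chain to its protein, had means of 13.0 in F2 PNO and 17.7 in F2 SAL, also without overlap (log2 fold change -0.45, adjusted p = 0.347). Arsb, a lysosomal sulfatase that removes sulfate from the chain, had means of 39.4 in F2 PNO, 33.0 in F2 SAL, 31.5 in F1 PNO and 36.4 in F1 SAL, so that PNO lay above SAL in F2 and below it in F1. For PNO against SAL, F2 minus F1, its interaction was 0.46 (standard error 0.12, adjusted p = 0.9998).

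Of the 13 hyaluronan genes, the degrading enzyme Hyal1 had a mean of 1.87 FPKM in F1 PNO and 3.18 in F1 SAL, without overlap (log2 fold change -0.75, adjusted p = 0.231). Of 16 proteases and inhibitors tested, 1 had an unadjusted p under 0.05 in F1 PNO against SAL (6.25%, against 13.9% of all genes) and 0 in F1 IUO against PNO (against 16.5%). Over the alternatives these counts ran from 0 to 3 and from 0 to 5. Of 12 basement membrane and fibrillar genes, 6 had an unadjusted p under 0.05 in F2 IUO against F1 IUO (against 15% of all genes), all lower in F2, and the count was also 6 without F2 IUO replicate 4. It was 7 after rescaling, all lower, and 4 without F1 IUO replicate 4. Fn1 (fibronectin) had 7.33, 8.91, 9.34 and 4.03 FPKM in F2 IUO and 11.96, 10.1, 13.8 and 12.7 in F2 SAL, without overlap (log2 fold change -0.77, adjusted p = 0.543). Replicate 4 was its lowest, and without it the log2 fold change was -0.50.

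Relations of the 9 members to 12 lists of cell type markers were examined over the 24 libraries, 108 relations in all. After adjustment over them, Pearson's r passed for 10 relations, and both r and Spearman's rho for 2. Bcan followed the oligodendrocyte precursor score, the mean log2 level of 5 genes (r = 0.78, permutation p = 2e-05, adjusted p = 0.00216, and rho = 0.79, permutation p = 2e-05, adjusted p = 0.00216). Without the 2 libraries farthest from the median score r was 0.75, and with group means removed it was 0.70. Cspg5 followed the same score (r = 0.72, permutation p = 7e-05, adjusted p = 0.00378, and rho = 0.65, permutation p = 0.00077, adjusted p = 0.0416), with r = 0.68 without the 2 farthest libraries. Without the 2 libraries with few detected genes, Bcan passed for both measures (r = 0.82 and rho = 0.80), whereas Cspg5 passed for r (0.67, adjusted p = 0.0256) and not for rho (0.56, adjusted p = 0.171). With upper-quartile rescaling, 0 relations passed for both measures. Summed FPKM of these 5 markers, led by Olig1, ran from 143 in F1 PNO replicate 2 to 269 in F2 SAL replicate 4, and none was listed at 0 in any library.

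**Figure D3:**
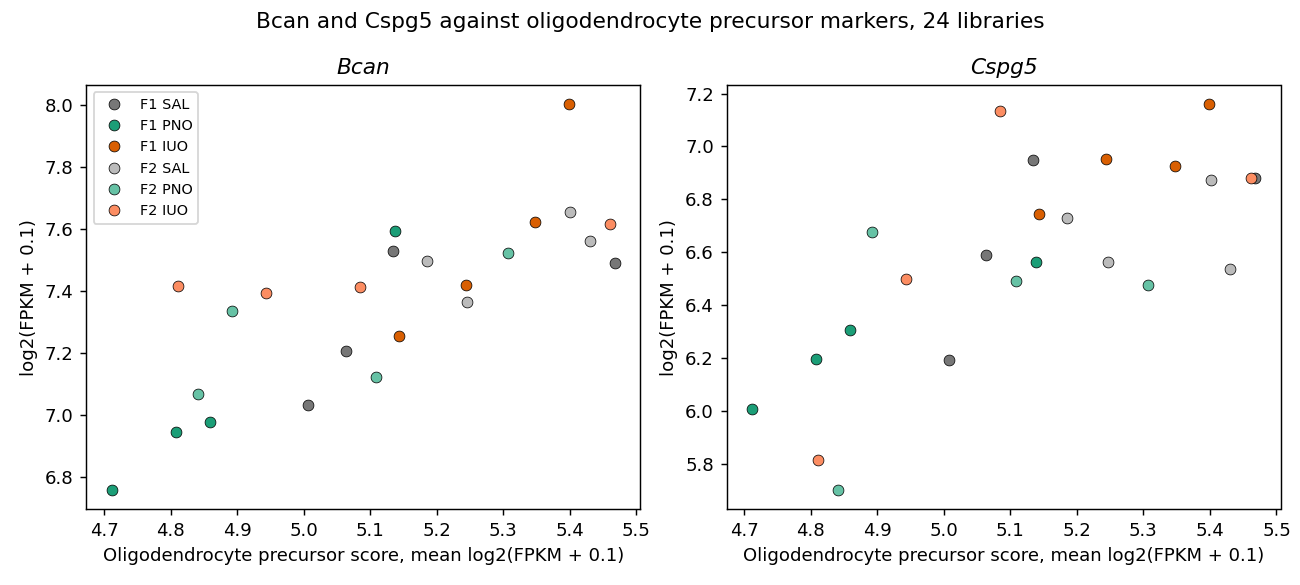
Each point is a library, coloured by group, with the mean log2(FPKM + 0.1) of 5 oligodendrocyte precursor markers on the horizontal axis and the log2(FPKM + 0.1) of Bcan (left) or Cspg5 (right) on the vertical axis. Libraries with higher scores had higher Bcan (r = 0.78) and Cspg5 (r = 0.72), and 3 of 4 F1 PNO libraries lie at the lower left.

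Tnr, Acan, Ncan, Ptprz1 and Cspg5 each had an r from 0.61 to 0.66 with the astrocyte score that passed after adjustment, but no rho did. Without the 2 libraries farthest from the median, which were the 2 with few detected genes, r ran from 0.32 to 0.52, so those relations rest on that pair of libraries to a large part. Ncan with the oligodendrocyte precursor score (r = 0.55, adjusted p = 0.0226) and Bcan with the hypothalamus score (r = 0.57, adjusted p = 0.0410) also passed by r alone. Neither passed without the 2 libraries with few detected genes (adjusted p = 0.164 and 0.0562), though r stayed about as large, at 0.51 and 0.62. Hapln1 had r = 0.60 (permutation p = 0.00188, adjusted p = 0.0226) and rho = 0.57 (permutation p = 0.00382, adjusted p = 0.0629) with the blood score. Without the 2 libraries with few detected genes, r was 0.66 (adjusted p = 0.0256) and rho 0.60 (adjusted p = 0.126). For the choroid plexus, no r is given, since libraries fell into separate clusters by its markers, with summed FPKM from 5.22 to 12246 and Ttr as the most abundant.

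Members also varied with one another. Of 36 pairs, a family added after seeing the data, 9 passed for both r and rho after adjustment, with all 24 libraries included. Tnr and Ncan had r = 0.92 (permutation p = 1e-05, the smallest the permutations can give, adjusted p = 0.00012) and rho = 0.80 (permutation p = 3e-05, adjusted p = 0.00054), and r = 0.74 without the 2 libraries with few detected genes. Tnr and Ptprz1 had r = 0.88 and rho = 0.80, and r = 0.64 without them. Bcan and Cspg5 had r = 0.69 and rho = 0.65, and r = 0.80 without them. Some passing pairs fell further without those 2 libraries, Ncan and Ptprz1 from r = 0.89 to 0.50 and Tnr and Cspg5 from 0.71 to 0.41. The rest fell less than these, with Tnc and Vcan going from r = 0.59 to 0.57 and Ncan and Cspg5 from 0.78 to 0.59. For Acan, r went from 0.64 to 0.48 with Ncan and from 0.64 to 0.49 with Ptprz1. Ptprz1 and Cspg5, not among the 9, passed for r (0.56) but not for rho (0.31, permutation test, adjusted p = 0.242). Without the 2 libraries with few detected genes their r was -0.000579, so that relation rests on those libraries.

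For each member, the 3 genes most alike in log2 FPKM over the 24 libraries were taken from 13677 genes with a mean of at least 1 FPKM, as a description. Nearest to Tnr were Zfp704 (r = 0.96), Peak1 (0.95) and Arfgef3 (0.95), and nearest to Ncan were Hectd4 (0.98), Dlg5 (0.97) and Nr2c2 (0.97). Ptprz1 was nearest to Xpr1 (0.96), Trim33 (0.95) and N4bp2 (0.95). These relations rest in part on the 2 libraries with few detected genes. Without them, r of the nearest gene named here went to 0.88 for Tnr, 0.88 for Ncan and 0.85 for Ptprz1, and of the 3 nearest genes 0 were shared for Tnr, 0 for Ncan and 1 for Ptprz1. Bcan was nearest to Cadm4 (0.91), Fam181b (0.90) and Chadl (0.90), and Cspg5 to Chst2 (0.89), Gtf3c1 (0.88) and Irf2bp2 (0.88). Without that pair, r was 0.93 for Bcan and Cadm4 and 0.83 for Cspg5 and Chst2, and 2 and 0 of the 3 nearest genes were shared. Tnc was nearest to Dcx (0.79), the doublecortin of migrating neurons, then Kif11 (0.75) and Fam227a (0.75). Acan was nearest to Iqsec3 (0.82), Kank2 (0.80) and Zfp382 (0.79), Vcan to Ndc1 (0.83), Htr2c (0.82) and Gzf1 (0.79), and Hapln1 to Sppl2a (0.82), Cbfb (0.74) and Ssr3 (0.74).

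Promoter sequences from RefSeq (build GRCr8), 250 bases before to 50 bases after a start, matched 7 of the 9 members, all but Ptprz1 and Cspg5. Those of Tnr and Ncan are shown because these genes had the highest r of any pair of members over all 24 libraries, which did not hold without the 2 libraries with few detected genes. Tnr lies on the plus strand at chr13:74624776-74625075 and Ncan on the plus strand at chr16:19335657-19335956. Capitals mark matches to the TATA box, searched as TATAAA, to the CCAAT box, searched as its name spells it, and to the GC box, searched as GGGCGG. Both strands were searched, and the matches do not overlap in these sequences.
Tnr: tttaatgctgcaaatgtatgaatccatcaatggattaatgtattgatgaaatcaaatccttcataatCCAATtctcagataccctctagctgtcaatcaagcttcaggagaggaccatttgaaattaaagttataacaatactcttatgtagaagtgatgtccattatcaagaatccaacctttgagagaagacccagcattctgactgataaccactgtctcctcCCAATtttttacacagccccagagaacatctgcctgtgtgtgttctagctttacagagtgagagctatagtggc
Ncan: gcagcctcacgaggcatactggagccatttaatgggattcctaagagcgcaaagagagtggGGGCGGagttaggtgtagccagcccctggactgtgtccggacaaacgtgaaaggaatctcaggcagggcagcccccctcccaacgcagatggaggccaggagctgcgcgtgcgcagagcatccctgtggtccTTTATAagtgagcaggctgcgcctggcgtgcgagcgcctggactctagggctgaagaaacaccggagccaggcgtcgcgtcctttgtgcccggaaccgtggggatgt
Tnr held 2 matches to the CCAAT box, and Ncan held 1 to the TATA box, on the opposite strand, and 1 to the GC box. Of 33469 promoters of this length, 37.5% held a match to the CCAAT box, 14.2% to the TATA box and 33.1% to the GC box. Bases G and C made up 38.3% of the Tnr sequence and 61.7% of that of Ncan. A match is a description of the letters only. In the same build Hapln1 and Vcan are neighbours on chromosome 2, with 0 genes between them.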

How the data were processed

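Total RNA of the nucleus accumbens was sequenced by a service company, and the authors deposited FPKM values per gene for each of 24 libraries. The submitters' processing notes name HISAT2, SAMtools, StringTie and edgeR without versions, and the genome build is not given in the sources used here. The number of reads is unknown. FPKM was analysed as log2(FPKM + 0.1), a scale that understates the change of low genes, for genes with at least 0.1 FPKM in 4 or more of the libraries compared. Pairs of groups and interactions were tested with limma 3.58.1 (empirical Bayes with a trend, R 4.3.3), two-sided, with Benjamini-Hochberg adjustment over all genes, and the pipeline was tested on simulated data. Shares were tested with exact permutation over 70 assignments, and correlations with 100000 permutations. Python 3.11.15, pandas 2.3.3, numpy 2.4.6, scipy 1.17.1 and matplotlib 3.10.9 were used. All 9 members were named, and of the related lists the 3 genes with the smallest unadjusted p under 0.05 in each comparison could be. The members and lists were chosen with earlier results of these data known. Alternatives were another pseudocount, filter, scaling or design, and leaving out libraries.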

Additional observations from a re-analysis of the deposited data

Results flagged for a closer look

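In groups of 4, a library was singled out where the distance to its nearest neighbour, divided by the distance between the extremes, was above Dixon's critical value at 5%. Over 26 measures and 156 groups, 18 values from 12 libraries were singled out, where chance gives about 7.8. No cause was tested.

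Among the members, Ncan in F2 PNO replicate 1 was 19.8 FPKM, with the others from 59.3 to 63.6 (ratio 0.902). Bcan in F2 IUO replicate 3 was 196 FPKM, with the others from 168 to 171 (0.91). Vcan in F1 IUO replicate 4 was 2.32 FPKM, under 4.57 to 4.86 in the others (0.886), and in F2 IUO replicate 3 it was 3.65, over 2.82 to 2.94 (0.855). Acan in F1 IUO replicate 3 was 1.07 FPKM, over 0.78 to 0.82 (0.862). In F2 IUO replicate 4 the Bcan share of the lectican sum was 87.5%, over 72.5% to 74.0% (0.899), and the Ncan share was 10.9%, under 24.3% to 26.1% (0.882).

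The other 11 were marker scores, each a mean of log2(FPKM + 0.1). The astrocyte score was low in F2 PNO replicate 1, at 5.96 with the others from 6.28 to 6.35 (0.833), in F1 SAL replicate 3, at 6.13 (0.84), and in F2 SAL replicate 2, at 6.07 (0.832). The striatal projection neuron score was 4.77 in F1 SAL replicate 1, with the others from 5.96 to 6.16 (0.861), and 5.79 in F2 PNO replicate 4, over 5.15 to 5.24 (0.858). The choroid plexus score of the same libraries was 4.65, over -0.46 to -0.04 (0.919), and 5.00, over -0.19 to 0.06 (0.952). The parvalbumin interneuron score was 2.75 in F2 SAL replicate 2, under 3.64 to 3.77 (0.875). The blood score was 2.58 in F1 SAL replicate 4, over 0.39 to 0.72 (0.849), 4.74 in F1 PNO replicate 3, over 1.13 to 1.55 (0.885), and 0.078 in F2 IUO replicate 2, under 2.51 to 2.68 (0.934).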

How the results depend on the processing

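In each of the 12 comparisons, 0 members had an adjusted p under 0.05 in limma under every alternative run. The shares also gave 0 calls, which says nothing of their stability, since that family could hardly pass. The counts that follow are members at an unadjusted p under 0.05, and the cause of each change was not tested. With upper-quartile rescaling, F2 IUO against SAL went from 1 to 0, F2 PNO against SAL from 1 to 3, F2 IUO against PNO from 1 to 2, and the interaction for PNO against SAL from 1 to 2. Marker relations past both thresholds went from 2 to 0 with it, and to 1 without the 2 libraries with few detected genes. With all 24 libraries in a joint fit, F1 PNO against SAL went from 2 to 0, F1 IUO against PNO from 4 to 2, F2 IUO against SAL from 1 to 2, F2 SAL against F1 SAL from 3 to 0, and the interaction for IUO against PNO from 1 to 0. With the thalamus score, F1 PNO against SAL went from 2 to 0, F2 PNO against SAL from 1 to 2, and the interaction for IUO against PNO from 1 to 0. Without the 2 libraries with few detected genes, chosen after seeing the data, F2 PNO against SAL went from 1 to 2, and the interactions went from 0 to 1 for IUO against SAL, from 1 to 2 for PNO against SAL and from 1 to 3 for IUO against PNO.

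The replicate numbers were not taken to pair the libraries. In the 6 comparisons within a generation, correlations of same-numbered deviations ran from -0.331 to 0.199, and none of the 6 had all 4 pairs over 0.1. F1 IUO against F1 PNO came nearest, with 3 of 4 pairs over 0.1 and a mean of 0.0922, where that of other numbers was -0.0310. With the replicate block, F1 IUO against SAL went from 0 to 2 members, F2 IUO against PNO from 1 to 0, and the interaction for IUO against PNO from 1 to 0.

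Leaving out 1 library at a time gave 2 to 4 members in F1 PNO against SAL (4 without F1 PNO replicate 3), and 0 to 3 in F2 IUO against SAL (0 without F2 SAL replicate 3, 3 without F2 IUO replicate 3). It gave 1 to 2 in F2 PNO against SAL (2 without F2 PNO replicate 1 or 3 or F2 SAL replicate 2), and 0 to 2 in F2 IUO against PNO (0 without F2 IUO replicate 2 or 4 or F2 PNO replicate 2, 2 without F2 PNO replicate 1). F2 IUO against F1 IUO had 1 to 5 (1 without F1 IUO replicate 1 or 3), and F2 PNO against F1 PNO 0 to 1 (1 without F1 PNO replicate 3). The interaction for IUO against SAL ran from 0 to 2 (2 without F2 IUO replicate 2 or 3, 1 without F1 IUO replicate 1 or F2 IUO replicate 4), and that for PNO against SAL from 1 to 2 (2 without F2 PNO replicate 1, F1 SAL replicate 2 or F2 SAL replicate 2). For IUO against PNO it ran from 0 to 4 (4 without F2 PNO replicate 1, 2 without F1 IUO replicate 4 or F1 PNO replicate 3). It was 0 without F1 IUO replicate 1 or 3, F2 IUO replicate 2 or 4, F1 PNO replicate 2 or 4, or F2 PNO replicate 2, 3 or 4.

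Counts over all genes also moved. At an adjusted p under 0.05, F1 IUO against PNO had 23 genes (0 to 28 over the alternatives), F2 PNO against SAL 1 (0 to 6), F2 SAL against F1 SAL 6 (1 to 8), and F2 PNO against F1 PNO 5 (1 to 7). The 8 other comparisons had 0, and at most 3 under an alternative. At an unadjusted p under 0.05, F1 PNO against SAL had 2438 (805 to 3016), F1 IUO against SAL 679 (471 to 1041), F1 IUO against PNO 2857 (1805 to 3296), F2 IUO against SAL 1452 (831 to 2002), F2 IUO against PNO 1208 (709 to 2099), F2 SAL against F1 SAL 1483 (828 to 2227), F2 PNO against SAL 1876 (1231 to 2742), and the interactions for PNO against SAL 756 (534 to 1299) and IUO against PNO 1060 (811 to 2238).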
